A study of Mus musculus with 7 samples.

Results

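The genes described here are the 7 transcription factors that are best known for driving the epithelial-mesenchymal transition (EMT), Snai1, Snai2, Twist1, Twist2, Zeb1, Zeb2 and Prrx1. They were taken by symbol, each matched 1 Ensembl gene, and all 7 are among the 29267 genes of the RNA-Seq tables. RNA was sequenced from 7 mouse libraries, 1 per group and without repeats. Fibroblasts of the OG2 line (MEFs), which carry an egfp transgene driven by the Oct4 promoter (Oct4GFP), received Oct4, Klf4, Sox2 and c-Myc by retrovirus and were cultured in mES medium, with serum, LIF and vitamin C, or in 5C medium, a serum-free medium with N2, bFGF, LIF and vitamin C. GFP-positive and GFP-negative cells were sorted on day 15 and sequenced at passage 0, and the 4 sorted libraries are called mES GFP+, mES GFP-, 5C GFP+ and 5C GFP- after their labels. 5C GFP+ cells were further cultured in naive medium (LIF with the inhibitors CHIR99021 and PD0325901) or in primed medium (bFGF and activin A), which gave 5C GFP+ (naive) and 5C GFP+ (primed). R1 ESC (primed), from the R1 line of mouse embryonic stem cells, were brought to the primed state on MEF feeder cells and then kept on serum-coated plates with CHIR99021 and IWR-1. The labels give passage 20 for these last 3 libraries; per the study's text, the converted cells were first grown for a few days in naive or primed medium and then passaged. All OG2 groups carry the reporter and the 4 retroviruses, and R1 is a separate line. The label of the converted cells names the fraction they came from. Per the study's text, the 5C GFP+ cells lost their GFP fluorescence in primed medium. The study's text names the distal enhancer of Oct4 as part of the reporter. An Oct4GFP fraction is defined by the reporter alone, so the negative fractions hold every cell without GFP, whatever its Oct4 RNA.

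EMT is the change in which epithelial cells give up their junctions and polarity and become motile mesenchymal cells. The Snail (Snai1, Snai2) and Zeb (Zeb1, Zeb2) zinc-finger proteins bind E-box sequences in the promoters of epithelial genes such as Cdh1 and recruit corepressors, the Twist proteins are bHLH factors that dimerize with E proteins, and Prrx1 is a homeodomain factor of mesenchyme. Fibroblasts are mesenchymal, pluripotent cells are epithelial in kind, and reprogramming therefore runs through the reverse change, the mesenchymal-epithelial transition.

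The Snail and Zeb proteins are known to read the E-box with the core CAGGTG, or CACCTG on the other strand. The 250 bases before the start site are shown for 3 members and for 3 epithelial genes of a list of 21 that EMT factors are known to repress, because the levels of both groups of genes are compared further on. The epithelial genes shown are the pair with the most matches, Lsr and Crb3, and Epcam, a cell-adhesion molecule, which has 2. The sequences are from RefSeq on GRCm38.p6, the build called mm10 in the submitters' processing notes, and are written from 5′ to 3′ in the direction of the gene, with each CAGGTG or CACCTG in capitals.
Snai1 (chr2:167537945-167538194, plus strand): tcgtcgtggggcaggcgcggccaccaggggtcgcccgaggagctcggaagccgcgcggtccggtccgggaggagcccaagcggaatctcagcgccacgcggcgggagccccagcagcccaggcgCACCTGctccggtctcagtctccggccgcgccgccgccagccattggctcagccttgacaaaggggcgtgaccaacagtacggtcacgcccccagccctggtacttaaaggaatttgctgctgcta
Twist1 (chr12:33957421-33957670, plus strand): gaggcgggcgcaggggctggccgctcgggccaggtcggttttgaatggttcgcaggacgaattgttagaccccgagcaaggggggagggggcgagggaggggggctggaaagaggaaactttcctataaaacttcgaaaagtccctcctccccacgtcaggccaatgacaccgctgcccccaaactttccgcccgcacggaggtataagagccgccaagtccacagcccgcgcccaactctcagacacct
Prrx1 (chr1:163313651-163313900, minus strand): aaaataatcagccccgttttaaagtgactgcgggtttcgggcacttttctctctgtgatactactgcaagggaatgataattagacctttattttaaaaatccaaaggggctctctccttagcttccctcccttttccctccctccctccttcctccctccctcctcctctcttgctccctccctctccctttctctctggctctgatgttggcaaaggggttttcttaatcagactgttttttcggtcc
Epcam (chr17:87635729-87635978, plus strand): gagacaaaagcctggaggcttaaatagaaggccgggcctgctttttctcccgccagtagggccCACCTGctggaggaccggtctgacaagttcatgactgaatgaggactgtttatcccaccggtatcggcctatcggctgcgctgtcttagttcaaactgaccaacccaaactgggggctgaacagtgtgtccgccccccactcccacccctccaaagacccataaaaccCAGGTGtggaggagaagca
Crb3 (chr17:57061951-57062200, plus strand): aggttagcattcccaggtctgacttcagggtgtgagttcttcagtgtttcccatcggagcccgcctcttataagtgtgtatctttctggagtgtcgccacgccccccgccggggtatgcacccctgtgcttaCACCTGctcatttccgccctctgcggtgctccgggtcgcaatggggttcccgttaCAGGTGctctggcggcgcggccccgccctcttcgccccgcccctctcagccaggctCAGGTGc
Lsr (chr7:30973470-30973719, minus strand): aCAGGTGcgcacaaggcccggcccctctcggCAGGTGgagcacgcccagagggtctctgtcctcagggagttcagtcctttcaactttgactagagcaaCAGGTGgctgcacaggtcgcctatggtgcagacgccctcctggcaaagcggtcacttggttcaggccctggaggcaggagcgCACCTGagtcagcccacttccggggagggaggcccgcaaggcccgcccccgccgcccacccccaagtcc
Both strands were searched, and overlapping matches were counted. Windows of the same gene can overlap, as for Crb3 and Zeb2, so that a match can be counted in more than 1 window. Cdh1 had no entry. CAGGTG or CACCTG was found in 17.2% of the 32851 promoter windows of this length in RefSeq. It was found in 14 of 21 windows (66.7%) of the 15 epithelial genes with an entry, which had been listed as known targets of these factors, so that the share describes how such targets are known and is no independent result. Any E-box, CANNTG, was found in 66.2% of all windows and in 66.7% of the windows of the epithelial genes. Of the 8 windows of the 5 members with an entry, only that of Snai1 held CAGGTG or CACCTG, and the others (1 each for Twist1, Twist2 and Prrx1, 4 for Zeb2) held no CANNTG. The window of Prrx1 has an observed-to-expected CpG ratio of 0.321, against 0.740 for Twist1 and 0.882 for Snai1, where the median of all windows is 0.373. A match is a description of the letters and not a site of binding, and no match says only that these letters are not in the window.

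Levels are given as TPM, the estimated abundance per length of transcript scaled to the same sum in each library, so that genes can be compared within a library. The libraries summed to between 6108252 and 11496615 expected counts. With 1 library per group there is no spread between replicates and no test. The intervals given are exact Poisson (levels) or Clopper-Pearson (ratios) 95% intervals from the expected counts rounded to whole reads, and cover counting error only. A gene without reads has a floor, the TPM of 3 counts. A gene was counted as apart at 2-fold on the log2(TPM + 1) scale, which understates the difference of low genes, if it reached 1 TPM in one of the libraries compared. In sorted or cultured populations, fewer cells of a type and less RNA per cell cannot be told apart. Of 12 naive markers, 9 were at least 2-fold higher and 2 lower in mES GFP+ than in mES GFP- cells. In 5C medium, 9 were higher and 1 lower in the GFP-positive cells. Klf4, also delivered by retrovirus, was lower in GFP-positive cells of both media (138.5 against 1613 TPM in mES, 522 against 1512 TPM in 5C). Zfp42, a marker of naive cells, was at 337, 219 and 355 TPM in mES GFP+, 5C GFP+ and 5C GFP+ (naive). It was at 1.31 and 14.1 TPM in mES GFP- and 5C GFP-, and was listed at 0 and 6.02 TPM in 5C GFP+ (primed) and R1 ESC (primed). Pou5f1, which encodes Oct4, was at 3640 TPM in mES GFP- and 1321 TPM in mES GFP+ cells; reads of the retroviral and the endogenous gene were not separated.

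The 7 factors summed to 174.2 TPM in mES GFP- and 90.5 TPM in 5C GFP- cells, against 17.9 TPM in mES GFP+ and 13.7 TPM in 5C GFP+ cells. In the converted cells the sum was 19.4 TPM in 5C GFP+ (naive), 28.3 TPM in 5C GFP+ (primed) and 76.7 TPM in R1 ESC (primed). All 7 genes were higher in each GFP-negative library than in its GFP-positive partner, in the case of Twist2 in 5C medium by 3 reads against 1. Their make-up also differed between libraries. Prrx1 alone held 50.5% of the sum in mES GFP- cells, Twist1 31.0% in R1 ESC (primed), Zeb1 53.3% in mES GFP+, and Snai1 46.4% in 5C GFP+ and 62.6% in 5C GFP+ (naive) cells.

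**Figure D1:**
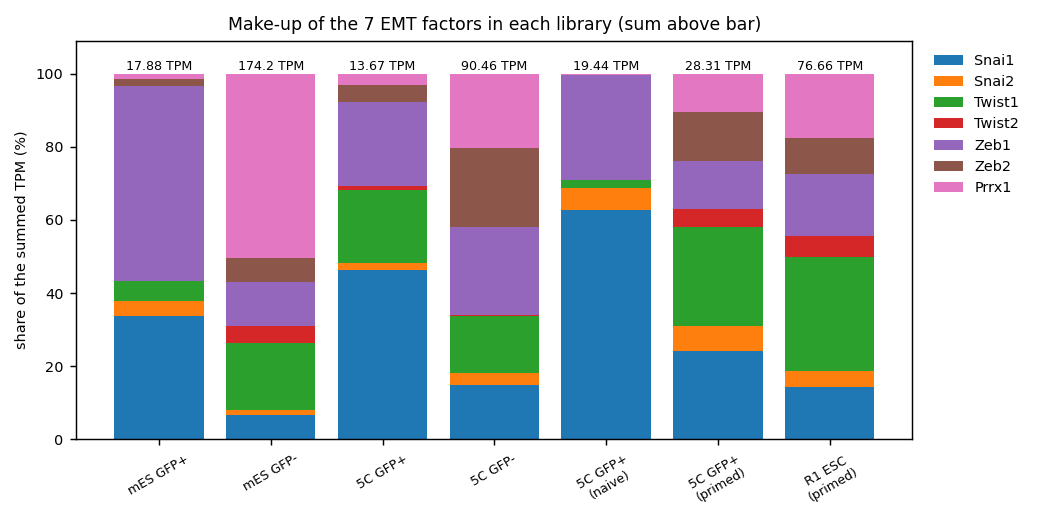
Share (%) of the summed TPM of the 7 EMT factors that each factor holds, as 1 stacked bar per library from 0 to 100%, with the sum in TPM above it. Prrx1 takes 50.5% of the bar in mES GFP- cells and under 1% in 5C GFP+ (naive) cells, where Snai1 takes 62.6%.

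Snai1, a zinc-finger repressor (ENSMUSG00000042821, chromosome 2, 167538195 to 167542814, plus strand, GRCm38), varied least. Its level was 6.02 TPM in mES GFP+, 11.4 in mES GFP-, 6.34 in 5C GFP+, 13.5 in 5C GFP-, 12.2 in 5C GFP+ (naive), 6.88 in 5C GFP+ (primed) and 11.1 in R1 ESC (primed), from 31 to 89 reads. The libraries fell into a higher set of 4 (both GFP-negative libraries, naive cells and R1 ESC (primed)) and a lower set of 3. Within each set, no neighbours in the order of level differed beyond the counting interval. The step between the sets, from R1 ESC (primed) to 5C GFP+ (primed), was 1.61-fold (1.13 to 2.30). Snai1 was the only member with more than 5 TPM in every library.

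Snai2, its relative that is also called Slug (ENSMUSG00000022676, chromosome 16, 14705852 to 14709385, plus strand), was low throughout. It was at 0.77, 2.78, 0.27, 2.99, 1.19, 1.87 and 3.32 TPM in mES GFP+, mES GFP-, 5C GFP+, 5C GFP-, 5C GFP+ (naive), 5C GFP+ (primed) and R1 ESC (primed), which rests on 3 to 25 reads. With the libraries ranked by its level, no neighbours differed beyond counting error. Its lowest and highest libraries were 1.77 apart on the log2(TPM + 1) scale. Snai1 exceeded Snai2 in all 7 libraries, by 3.34-fold (2.08 to 5.52) in R1 ESC (primed) at the least and 23.6-fold (7.68 to 118) in 5C GFP+ cells at the most.

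Zeb1, a zinc-finger and homeodomain repressor (ENSMUSG00000024238, chromosome 18, 5591860 to 5775467, plus strand), was present in every library. It was at 9.53 TPM in mES GFP+, 20.8 in mES GFP-, 3.14 in 5C GFP+, 21.7 in 5C GFP-, 5.58 in 5C GFP+ (naive), 3.65 in 5C GFP+ (primed) and 12.9 in R1 ESC (primed). Both GFP-negative libraries were highest and did not differ beyond the counting interval, and neither did the 2 lowest, 5C GFP+ (primed) and 5C GFP+. The start of Zeb1 overlaps Gm10125, a gene of the other strand that was listed at 6.31 to 17 TPM, with its highest values in 5C GFP+ (naive) and mES GFP+ cells; whether strand was used in counting is not given in the sources used here, and without it reads of the overlap cannot be told apart.

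Zeb2 (ENSMUSG00000026872, chromosome 2, 44983632 to 45117395, minus strand), the other Zeb repressor, was lowest in the GFP-positive and naive cells. It was at 0.350 TPM in mES GFP+ (4 reads), 0.620 in 5C GFP+ (15 reads) and without reads in 5C GFP+ (naive), where the floor is 0.144 TPM. It was at 11.3 TPM in mES GFP-, 19.5 in 5C GFP-, 3.84 in 5C GFP+ (primed) and 7.68 in R1 ESC (primed). With the libraries ranked by its level, each neighbouring pair differed beyond the counting interval except 5C GFP+ and mES GFP+. Its antisense partner Zeb2os was at 1.33 TPM or less in all libraries. The balance of the pair thus varied: Zeb1 exceeded Zeb2 by 27.3-fold (10.5 to 102) in mES GFP+, 5.04-fold (2.87 to 9.44) in 5C GFP+, 1.84-fold (1.56 to 2.17) in mES GFP- and 1.68-fold (1.33 to 2.13) in R1 ESC (primed). The interval of the ratio spanned 1 in 5C GFP- (1.11, 0.976 to 1.27) and in 5C GFP+ (primed) (0.95, 0.723 to 1.25).

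Twist1, a bHLH factor of mesoderm and neural crest (ENSMUSG00000035799, chromosome 12, 33957671 to 33959829, plus strand), ranged from 0.410 to 31.7 TPM. It was at 0.970 TPM in mES GFP+ (5 reads), 31.7 in mES GFP- (216 reads), 2.72 in 5C GFP+ (24 reads), 14.0 in 5C GFP- (92 reads), 0.410 in 5C GFP+ (naive) (3 reads), 7.73 in 5C GFP+ (primed) (75 reads) and 23.8 in R1 ESC (primed) (141 reads). With the libraries ranked by its level, every step was larger than counting error except the last, from mES GFP+ to naive cells. Twist2 (ENSMUSG00000007805, chromosome 1, 91801461 to 91848028, plus strand), a second Twist protein, was at 8.21 TPM in mES GFP-, 4.50 in R1 ESC (primed) and 1.39 in 5C GFP+ (primed). It was at 0.450 TPM (3 reads) in 5C GFP- and 0.140 TPM (1 read) in 5C GFP+, and had no read in mES GFP+ and 5C GFP+ (naive), with floors of 0.718 and 0.506 TPM. Unlike the other members, Twist2 was at or near its floor in 1 of the GFP-negative libraries. Twist1 exceeded Twist2 by 3.82-fold (2.77 to 5.38) in mES GFP- and by 31.3-fold (10.4 to 155) in 5C GFP- cells.

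Prrx1 (ENSMUSG00000026586, chromosome 1, 163245119 to 163313710, minus strand), a homeodomain factor of limb and craniofacial mesenchyme, had the widest range of the 7, 6.35 on the log2(TPM + 1) scale. It was at 87.9 TPM in mES GFP- (1424 reads), 18.4 in 5C GFP- (282 reads), 13.5 in R1 ESC (primed) (154 reads) and 2.95 in 5C GFP+ (primed) (75 reads). In the other libraries it was at 0.440 TPM in 5C GFP+ (6 reads), 0.240 in mES GFP+ (1 read) and 0.09 in 5C GFP+ (naive) (1 read), and those 3 did not differ beyond counting error. Prrx2, the related homeodomain gene, was at 32.8 TPM in mES GFP-, 25.8 in 5C GFP-, 15.8 in 5C GFP+ (primed) and 15.01 in R1 ESC (primed). Prrx1 was 2.68-fold (2.22 to 3.26) above Prrx2 in mES GFP- but 1.40-fold (1.10 to 1.77) below it in 5C GFP- and 5.34-fold (3.93 to 7.28) below it in 5C GFP+ (primed). In R1 ESC (primed) the ratio was 0.896 (0.677 to 1.20).

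**Figure D2:**
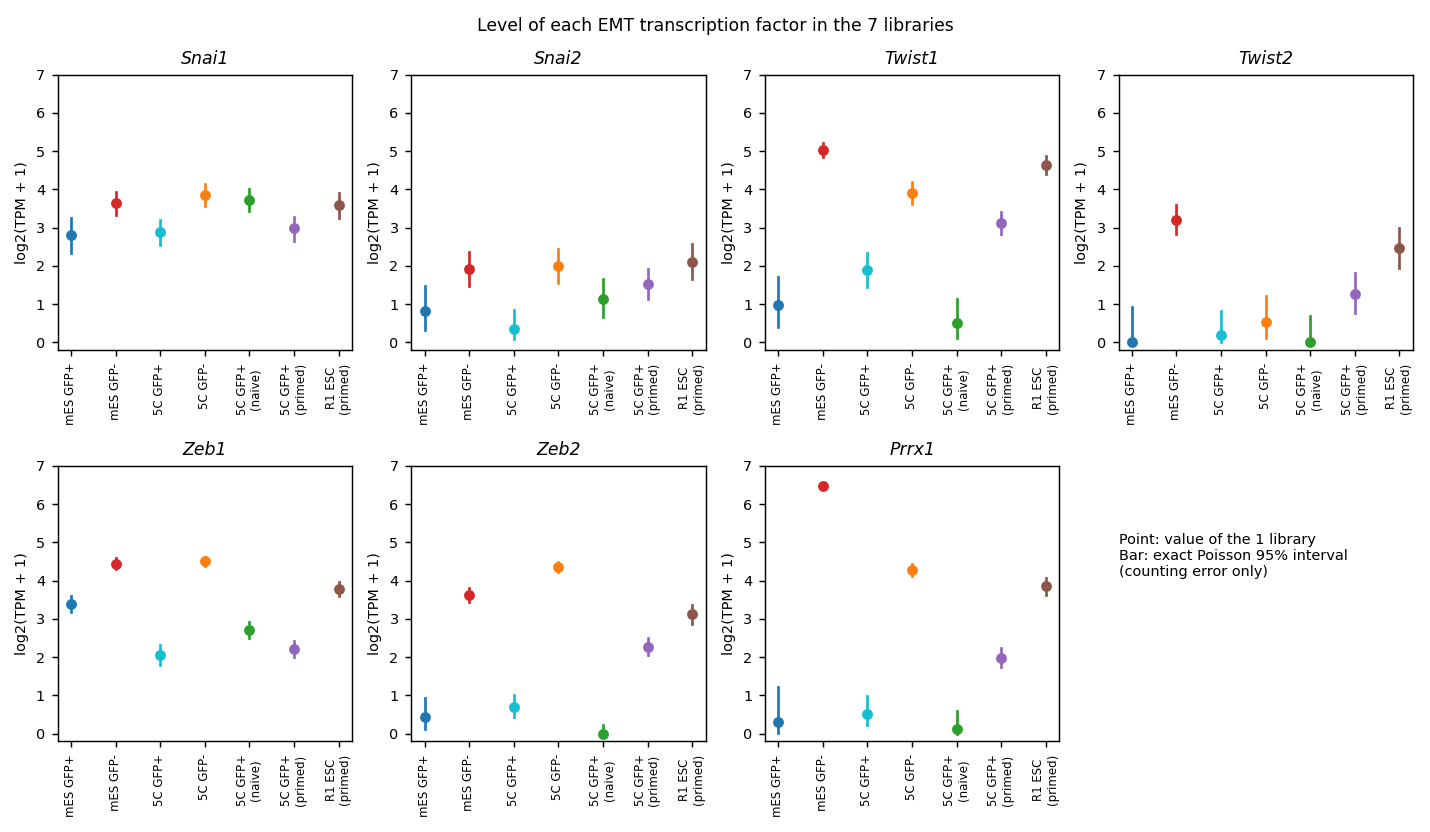
Level of each EMT factor as log2(TPM + 1) (y axis) in the 7 libraries (x axis), with points for the value of each single library and bars for the exact Poisson 95% interval of its reads. Snai1 stays within 1.04 on this scale, whereas Prrx1 spans 6.35, from naive cells to mES GFP- cells.

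The first comparison asks how the medium bears on the factors in cells negative for the reporter. Prrx1 and both Twist genes were the members that had lower levels in 5C medium, while both Snail genes and Zeb1 did not differ beyond counting error and Zeb2 was higher. Prrx1 was 4.77-fold lower (4.20 to 5.44), Twist1 2.27-fold lower (1.77 to 2.93) and Twist2 18.2-fold lower (5.99 to 93.6, with 3 reads against 46). Zeb2 was 1.72-fold higher in 5C medium (1.46 to 2.02), a difference of 0.73 on the log2(TPM + 1) scale and so under 2-fold there. The ratio of 5C to mES was 1.18 (0.860 to 1.62) for Snai1, 1.08 (0.590 to 1.97) for Snai2 and 1.04 (0.908 to 1.20) for Zeb1. Of the 7 members, 3 were at least 2-fold lower and none was higher, and of all 15859 genes tested 10.1% were lower and 9.68% higher.

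Mesenchymal and fibroblast genes, 22 in the list used here, gave mixed values in the same comparison: 8 were at least 2-fold lower in 5C GFP- and 1 higher, with a median difference of -0.57 against 0.03 for all genes. Col1a1, a collagen chain, was 3.55-fold lower (3.32 to 3.80), Pdgfrb, a growth factor receptor, 3.62-fold lower (2.74 to 4.83), and Thy1, a surface protein of fibroblasts, 6.10-fold higher (4.67 to 8.09). Vim, the intermediate filament vimentin, was at 2209 and 2468 TPM in mES GFP- and 5C GFP- cells. The 22 genes summed to 5050 TPM in mES GFP- and 4694 TPM in 5C GFP-, and none was at 0 in either. Of the 21 epithelial genes, 12 were lower in 5C GFP- and none was higher, with a median of -1.20. The largest differences were those of Krt19, a keratin (6.33-fold lower, 5.75 to 6.98), and Cldn6, a claudin of tight junctions (6.41-fold lower, 5.42 to 7.63), whereas Epcam was 1.35-fold higher (1.27 to 1.43). The mES GFP- library thus had higher TPM of Prrx1, Twist1 and Twist2 and of most of the epithelial genes. Primitive endoderm markers, such as Gata4 and Dab2, were also lower in 5C GFP- for 5 of 5 genes, with 167 and 18.5 TPM in sum in mES GFP- and 5C GFP-. Lower too were 4 of 5 mesendoderm markers tested, with 1 higher, and 3 of 3 of blood and endothelium. Of 6 neural and neural crest markers, 4 were higher in 5C GFP- and none lower (Sox10 at 18 against 1.37 TPM). Of 12 naive markers, 6 were higher and 1 lower, with a median of 1.20. Dppa5a, a marker of naive cells, was 15.6-fold higher (9.57 to 27.2) and Esrrb, a nuclear receptor of naive cells, 12.1-fold higher (7.88 to 19.4). The list summed to 4049 TPM in 5C GFP- and 5849 TPM in mES GFP-. These sums include Pou5f1, Sox2 and Klf4, which had also been delivered by retrovirus. The part that other cells among the GFP-negative cells have in these differences was not tested.

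Genes for proteins that work with the factors were compared in the same pair of libraries. Among the genes of E proteins, which pair with Twist, Tcf4 was 2.22-fold higher (2.01 to 2.45) and Tcf3 1.66-fold higher (1.56 to 1.77) in 5C GFP- cells, while the genes of the Id proteins, which sequester E proteins, were within 2-fold. Of 17 genes for corepressors and chromatin enzymes, 1 was at least 2-fold lower and none higher, with a median of 0.21. The exception was Loxl2, a lysyl oxidase-like protein that stabilizes Snail, which was 9.56-fold lower (8.52 to 10.7). None of 9 genes for Snail or Twist turnover was 2-fold apart, and Fbxl14, a ubiquitin ligase subunit for Snail, was 1.91-fold higher (1.67 to 2.19). Of 11 genes upstream of the factors, of the TGF-beta pathway with Hif1a, 3 were at least 2-fold lower and none higher. Without that threshold, 6 had a lower and 5 a higher value in 5C GFP-, and Hif1a was 1.41-fold higher (1.31 to 1.53). Among the 3 lower by 2-fold, Tgfb1, a ligand, was 2.41-fold lower (1.97 to 2.95) and Smad7, the inhibitory Smad, 2.92-fold lower (2.35 to 3.65).

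In the GFP-positive cells, Zeb1 was the member that stood apart between the media. It was 3.04-fold lower in 5C GFP+ than in mES GFP+ cells (2.28 to 4.05, with 76 reads against 146), and was 1 of the 3 members above the minimum of 1 TPM. The overlapping Gm10125 was at 11.1 and 16.8 TPM in these libraries, and its part in the value of Zeb1 was not tested. Snai1 had a ratio of 1.05 (0.668 to 1.69). Twist1 was 2.80-fold higher in 5C medium (1.05 to 9.39), from 5 and 24 reads, a log2(TPM + 1) difference of 0.92. Snai2, Twist2, Zeb2 and Prrx1 were under 1 TPM in both libraries, and their intervals spanned 1. Thus 1 member was lower and none higher, beside 13.5% lower and 13.7% higher of 15196 genes.

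The 2 libraries also differed in pluripotency markers. Of 8 primed markers, 7 were at least 2-fold higher in 5C GFP+ cells and none lower, with a median of 2.46 and sums of 787 and 176 TPM in 5C GFP+ and mES GFP+. Otx2, a homeobox gene of primed cells, was 462-fold higher (159 to 2256, with 3 reads in mES GFP+). Of 12 naive markers, 1 was higher and 3 lower. The higher one was Klf4 (521.9 against 138.5 TPM), which had also been delivered by retrovirus. The list holds Pou5f1 and Sox2 too, and retroviral and endogenous reads were not separated for any of these genes. The part of the difference in pluripotency markers in the values of the factors and of the gene lists was not tested.

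The epithelial genes were higher in 5C GFP+ cells for 14 of 21 and lower for none, with a median of 2.06 against -0.06 for all genes. Cldn7, a claudin, was 28.3-fold higher (15.3 to 59.6) and Krt18, a keratin, 35.4-fold higher (16.1 to 97.3), whereas Cdh1, which encodes E-cadherin, was 1.18-fold lower (1.14 to 1.23). Of 9 regulators of the epithelial state, 5 were higher and 1 lower. Esrp1, an epithelial splicing factor that Zeb1 is known to repress, was at 88.5 against 0.820 TPM (108-fold, 52.2 to 268), and Grhl2, a factor known to oppose Zeb1, at 43.7 against 5.08 TPM (8.60-fold, 6.62 to 11.4). Elf3, an epithelial ETS factor, was 6.60-fold lower (5.78 to 7.55). Ovol2, another of the 9, was 1.72-fold higher (1.06 to 2.90), short of 2-fold on the log2(TPM + 1) scale. Of the 22 mesenchymal genes, 18 passed the minimum, 5 were higher and 4 lower. Col5a2, a collagen chain, was 11.6-fold higher (7.80 to 17.9) and Pdgfrb 31.6-fold lower (11.7 to 118). Id1, the E protein inhibitor, was 23.4-fold higher (13.3 to 45.7) in 5C GFP+, and Snai3, the remaining Snail gene, 15.1-fold higher (4.94 to 74.2).

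The next 2 comparisons set GFP-positive against GFP-negative cells of 1 medium, and they share with the comparisons above the libraries used there. In mES medium, all 7 factors were lower in mES GFP+ cells, 6 of them by 2-fold or more, where 28.8% of 16294 genes were lower and 17.9% higher. Prrx1 was 366-fold lower (66.2 to 14602.5, with 1 read against 1424), Twist1 32.7-fold lower (13.8 to 101.4) and Zeb2 32.4-fold lower (12.5 to 120). Twist2, without reads in mES GFP+, was 11.4-fold lower at the floor of 3 counts and at least 9.04-fold lower by the exact interval. Snai2 was 3.61-fold lower (1.36 to 12.2), Zeb1 2.19-fold lower (1.80 to 2.66) and Snai1 1.90-fold lower (1.24 to 2.98), the last short of 2-fold on the log2(TPM + 1) scale.

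In 5C medium, 6 members passed the minimum and 5 were at least 2-fold lower in 5C GFP+ cells, beside 22.6% lower and 8.45% higher of 15675 genes. Prrx1 was 41.9-fold lower (18.9 to 114), Zeb2 31.4-fold lower (18.7 to 56.1) and Zeb1 6.91-fold lower (5.39 to 8.89). Snai2 was 11.1-fold lower (3.40 to 57.7, with 3 reads against 25), and Twist1 was 5.14-fold lower (3.24 to 8.40). Snai1 was 2.13-fold lower (1.51 to 3.03), a log2(TPM + 1) difference of -0.98. Zeb1 was thus lower by 2.19-fold in GFP-positive cells of mES medium and by 6.91-fold in those of 5C medium, and Twist1 by 32.7-fold and 5.14-fold. The difference between those pairs has no replicate to test it.

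**Figure D3:**
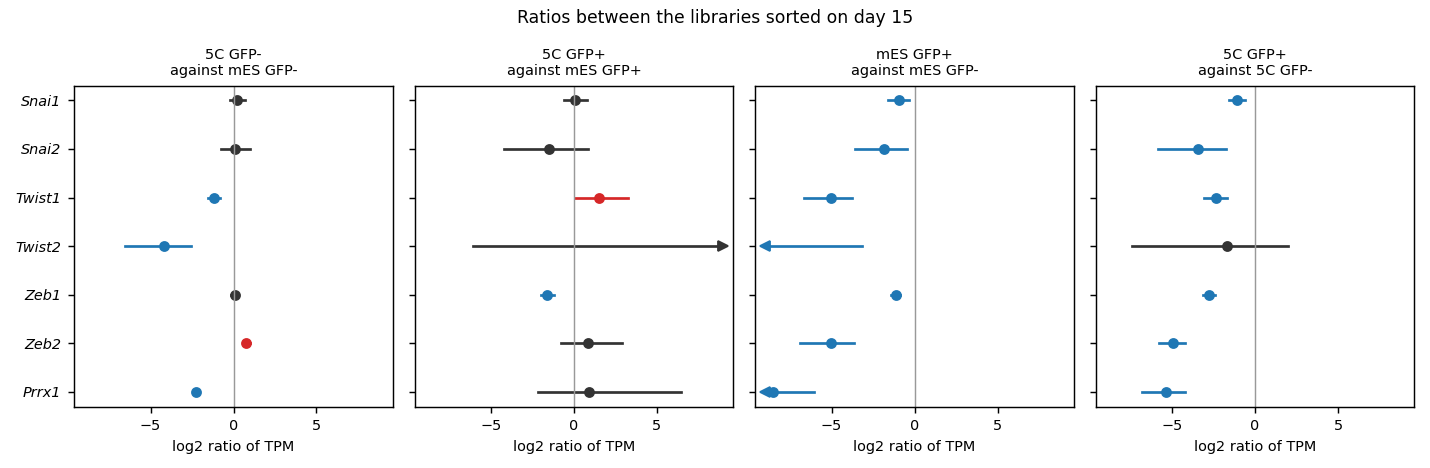
log2 ratio of TPM (x axis) of the 7 EMT factors (y axis) in 4 comparisons of the sorted libraries, 1 panel each, with bars for the exact 95% counting interval and arrows where it goes past the axis. Blue marks intervals below 0, red those above 0 and dark grey those that span it, and the intervals of all members but Twist2 in 5C medium lie below 0 in the panels of GFP-positive against GFP-negative cells.

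Fibroblast genes moved with the factors in these comparisons. All 22 mesenchymal genes were lower in mES GFP+ than in mES GFP- cells, 20 by 2-fold, with a median of -3.24, and all 22 were lower in 5C GFP+, 19 by 2-fold, with a median of -2.92. The median of all genes was -0.15 and -0.25. Acta2, a smooth muscle actin of myofibroblasts, was 325-fold lower (139 to 1003) in mES medium and 29.5-fold lower (22.1 to 40.2) in 5C medium. The summed level of the list was 1178 TPM in mES GFP+, 5050 in mES GFP-, 1130 in 5C GFP+ and 4694 in 5C GFP-, and no gene of it was at 0 in any of the 4. How far the level of the factors follows the number of fibroblasts in the sorted fractions was not tested.

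The epithelial genes did not run opposite to the factors in both media. In mES medium, 17 of 21 were lower in the GFP-positive cells, which also had less of all 7 factors, and 2 were higher, with a median of -2.74. Krt19 was 1529.8-fold lower (419 to 12517) and Krt18 334-fold lower (153 to 911), whereas Cdh1 was 2.38-fold higher (2.27 to 2.51) and Llgl2, a polarity gene, 2.11-fold higher (1.90 to 2.35). In 5C medium, 7 were higher and 4 lower, with a median of 0.46. There Tjp3, of tight junctions, was 3.78-fold higher (3.10 to 4.66), Llgl2 3.57-fold higher (3.12 to 4.11) and Krt8 8.99-fold lower (7.86 to 10.3). Esrp1 was 60.0-fold lower (28.9 to 149) in GFP-positive cells of mES medium but 3.26-fold higher (2.91 to 3.65) in those of 5C medium. Upstream genes were lower for 5 of 11 and higher for none in mES medium, and lower for 7 and higher for 1 in 5C medium. The gene that was higher was Smad7, the inhibitory Smad (2.97-fold, 2.41 to 3.70). The lower ones were led by Tgfb2 (70.5-fold, 34.2 to 178, in mES medium) and Tgfb3 (47.9-fold, 19.8 to 147, in 5C medium). The RNA of all 7 E and Id protein genes was lower in GFP-positive cells of both media, 5 by 2-fold in each.

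Conversion of 5C GFP+ cells to the naive state went with lower Twist1 and Zeb2 and higher Snai1, Snai2 and Zeb1. The 5C GFP+ cells were at passage 0 and the naive cells at passage 20, so that passage and medium cannot be told apart in this pair. Snai1 was 1.92-fold higher (1.36 to 2.73), Zeb1 1.78-fold higher (1.33 to 2.38) and Snai2 4.41-fold higher (1.17 to 24.7, with 11 reads against 3), none of them 2-fold on the log2(TPM + 1) scale. Twist1 was 6.63-fold lower (2.01 to 34.3) and Zeb2, without reads in naive cells, 4.30-fold lower at the floor of 3 counts and at least 3.11-fold lower by the exact interval. Of 4 members above the minimum, 1 was lower and none higher, beside 17.5% lower and 10.0% higher of 14863 genes. With a minimum of 5 TPM no member was lower, with CPM 2 were lower and 1 higher, and with a pseudocount of 0.1, 1 was higher. Of the 8 primed markers, 7 were lower in naive cells and none higher, with sums of 202 against 787 TPM. The epithelial genes were lower for 16 of 21 and higher for none (median -1.94 against -0.10 for all genes) and Esrp1 was 96.2-fold lower (59.2 to 169). Of the 22 mesenchymal genes, 17 passed the minimum, 2 were higher and 6 lower, with a median of 0.07.

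Conversion to the primed state went with higher Twist, Zeb2, Prrx1 and Snai2. Here too the 5C GFP+ cells were at passage 0 and the converted cells at passage 20, and passage and medium cannot be told apart. All 7 members had a higher TPM in 5C GFP+ (primed) than in 5C GFP+, 5 of them by 2-fold and none lower, beside 13.7% higher and 16.1% lower of 15067 genes. The count of 5 fell to 3 with FPKM in place of TPM and to 1 at a minimum of 5 TPM, which tests fewer members. Zeb2 was 6.19-fold higher (3.57 to 11.3), Prrx1 6.71-fold (2.92 to 18.7) and Twist1 2.84-fold (1.77 to 4.70). Snai2 was 6.93-fold higher (2.10 to 36.2) from 3 and 23 reads, and Twist2 9.93-fold higher (1.45 to 430) from 1 and 11 reads. The ratio was 1.09 (0.750 to 1.58) for Snai1 and 1.16 (0.855 to 1.57) for Zeb1, so that 1 gene of each repressor pair stood apart and the other did not.

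Mesenchymal genes were higher in primed than in 5C GFP+ cells for 14 of 22 (21 above the minimum) and lower for 2, with a median of 1.29 against 0.06 for all genes. Cdh2, which encodes N-cadherin, was 49.5-fold higher (36.5 to 68.9) and Tnc, a matrix protein, 30.3-fold higher (20.1 to 48.2), whereas Fn1, fibronectin, was 2.67-fold lower (2.60 to 2.75). Of 13 other factors able to induce EMT, 7 were higher and 1 lower. Gsc, a homeobox gene of the organizer, was 147-fold higher (62.4 to 451) and Foxq1, a forkhead gene, 299.6-fold higher (85.2 to 2556.5, with 0.140 TPM in 5C GFP+). Epithelial genes gave 7 higher and 6 lower, with a median of 0.10. Krt8 was 17.7-fold higher (15.5 to 20.2) and Cldn4, a claudin, 13.7-fold lower (11.6 to 16.4), and Cdh1 was at 284 against 249 TPM. Upstream, Tgfb1 was 9.45-fold higher (7.18 to 12.7). Mesendoderm markers such as T and Cer1 were higher for 6 of 6 tested, with a sum of 1038 against 9.03 TPM, and primitive endoderm markers for 4 of 4, with 101 against 3.13 TPM, and the part of such cells in the levels of the factors was not tested.

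Primed and naive cells of the same 5C origin, which also stand in the comparisons with 5C GFP+ above, differed in 4 members by 2-fold, all higher in primed cells, beside 22.2% higher and 16.7% lower of 15249 genes. Prrx1 was 32.8-fold higher (5.68 to 1305, with 75 reads against 1) and Twist1 18.9-fold higher (6.18 to 93.1). Zeb2 and Twist2, without reads in naive cells, were 26.6-fold and 2.75-fold higher at the floor of 3 counts, and at least 21.3-fold and 1.88-fold higher by the exact interval. Snai1 and Zeb1 went the other way, 1.77-fold lower (1.27 to 2.47) and 1.53-fold lower (1.18 to 1.996) in primed cells. At a minimum of 5 TPM, which tests fewer members, 1 of the 7 was higher. Of the 22 mesenchymal genes 14 were higher and 2 lower in primed cells, and of the 21 epithelial genes 11 were higher and 2 lower, with medians of 2.19 and 2.10 against 0.14 for all genes. The summed level of the mesenchymal list was nevertheless lower in primed cells, at 1210 against 1342 TPM, while that of the epithelial list was 2545 against 892 TPM. Mesendoderm markers were higher for 6 of 6 tested (1038 against 18.2 TPM in sum), and their part was not tested. Cdh2 was 15.2-fold (12.4 to 18.7) and Krt18 752-fold (258 to 3661) higher.

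The primed cells of 5C origin were lower in all 7 factors than R1 ESC (primed), 4 by 2-fold and none higher, in a comparison where 5.09% of 14600 genes were lower and 2.30% higher. Prrx1 was 4.56-fold lower (3.43 to 6.08), Zeb1 3.53-fold (2.78 to 4.49), Twist1 3.07-fold (2.31 to 4.13) and Twist2 3.24-fold (1.52 to 7.47). Zeb2 was 2.0-fold lower (1.53 to 2.62) and Snai1 1.61-fold lower (1.13 to 2.30), both short of 2-fold on the log2(TPM + 1) scale, and the interval of Snai2 spanned 1 (0.563, 0.305 to 1.03). The mesenchymal genes were lower for 21 of 22, 11 by 2-fold with 1 higher by 2-fold, with a median of -0.99 against -0.03 for all genes. Tnc was 3.94-fold lower (3.62 to 4.30) and Col3a1, a collagen chain, 3.70-fold lower (3.28 to 4.16), and the list summed to 1210 TPM in 5C GFP+ (primed) and 2107 TPM in R1 ESC (primed), with no gene at 0. All 21 epithelial genes were higher, 6 by 2-fold, with a median of 0.83, led by Krt19 (6.10-fold, 4.33 to 8.84) and Krt18 (2.80-fold, 2.57 to 3.05). Cdh1 was at 284 and 185 TPM. R1 ESC (primed) had been induced on MEF feeder cells and kept with CHIR99021 and IWR-1, and only the OG2 cells carry the 4 retroviruses. Feeder RNA, line, culture medium and retroviruses cannot be told apart from state in this pair.

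Of 3 members above the minimum, none was 2-fold apart between converted naive cells and mES GFP+ cells, beside 2.49% higher and 6.27% lower of 14477 genes. The naive cells were at passage 20 and the mES GFP+ cells at passage 0, and passage and medium cannot be told apart. Snai1 was 2.02-fold higher in naive cells (1.33 to 3.15), a log2(TPM + 1) difference of 0.91, and Zeb1 was 1.71-fold lower (1.34 to 2.17). Twist2 had no reads in either library, and Zeb2 had 4 reads in mES GFP+ and none in naive cells, where the exact interval allows a ratio as small as 1.20-fold.

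**Figure D4:**
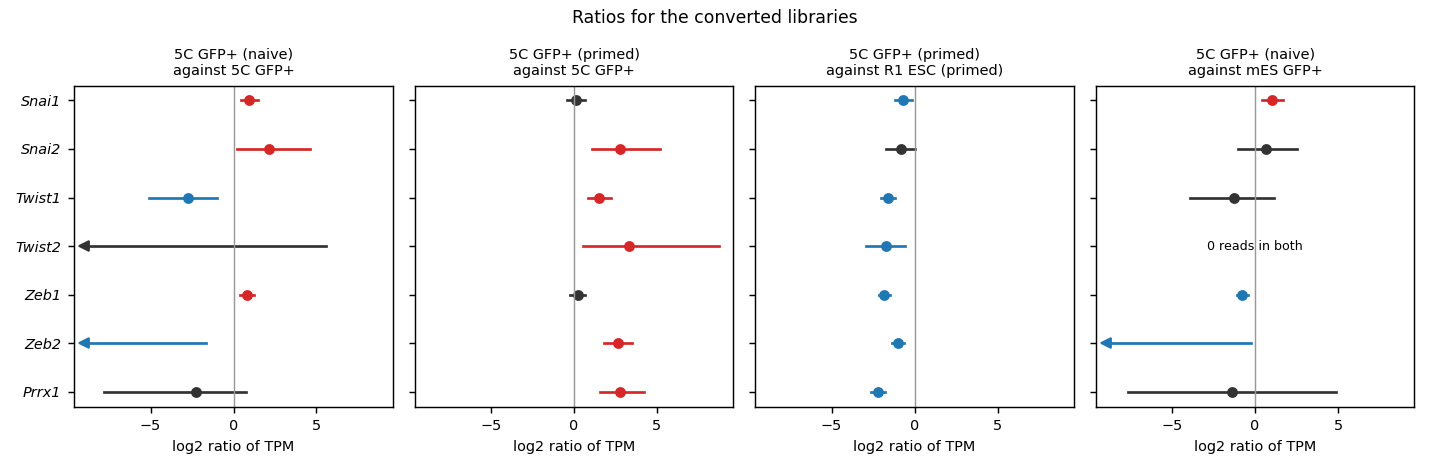
log2 ratio of TPM (x axis) of the 7 EMT factors (y axis) for naive and primed conversion against 5C GFP+, for primed cells against R1 ESC (primed) and for naive cells against mES GFP+, with bars for the exact 95% counting interval, arrows where it goes past the axis, and colours as for the sorted libraries. All 7 points lie below 0 against R1 ESC (primed), and Twist1 lies below 0 after naive and above 0 after primed conversion.

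**Figure D5:**
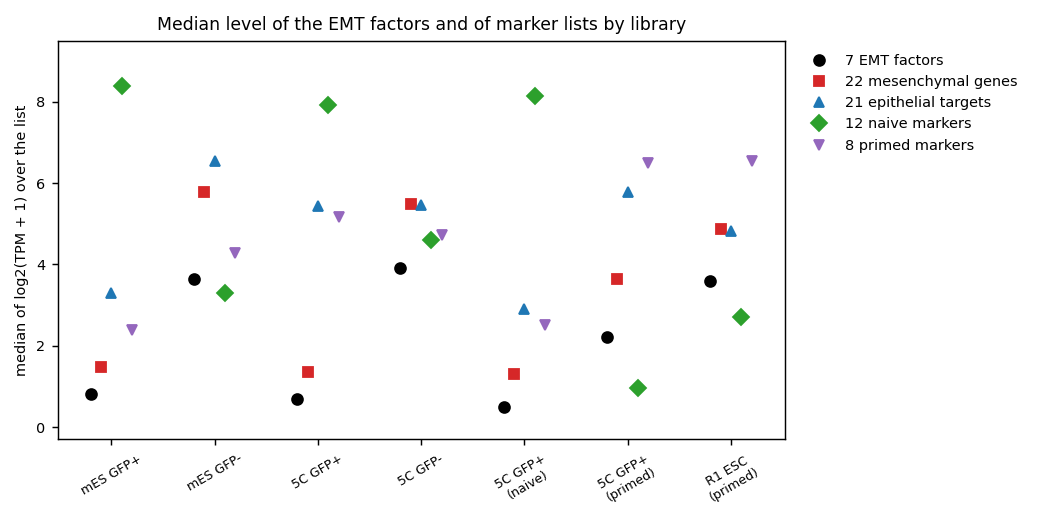
Median of log2(TPM + 1) (y axis) over the 7 EMT factors and over 4 marker lists in each library (x axis), 1 symbol per list. The EMT factors and mesenchymal genes are high in the same libraries (GFP-negative cells and R1 ESC (primed)), while the epithelial genes have their highest median in mES GFP- cells, where the factors sum to 174.2 TPM.

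Across the 7 libraries, Pearson's r of log2(TPM + 1) between members ranged from 0.353 (Twist2 and Snai1) to 0.939 (Prrx1 and Twist1), as a description over 7 points that share depth and few states. The genes with the nearest profiles, among 5516 that reached 5 TPM and varied by at least 2 on that scale, were sought for the 5 members that varied as much. For Prrx1 they were Runx2 (r = 0.998), the runt factor of bone, Ifi202b (0.996) and Nog (0.993), a BMP antagonist. For Twist1 they were Dnm1 (0.994), a dynamin, Cd248 (0.987), a protein of stromal cells, and Angptl2 (0.987), a secreted angiopoietin-like protein. For Zeb2 they were Per2 (0.995), a clock gene, Irx5 (0.994), a homeobox gene, and Antxr1 (0.992). For Twist2 they were Prss12 (0.982), Sfrp5 (0.977), a Wnt inhibitor, and Areg (0.976), an EGF receptor ligand. Zeb1 had the least similar neighbours, Cd302 (0.967) and the homeobox genes Hoxc9 (0.954) and Hoxb4 (0.953). Runx2, for instance, was at 10.3 TPM in mES GFP- and 3.33 TPM in 5C GFP- cells, and at 0.05 TPM or less in mES GFP+, 5C GFP+ and 5C GFP+ (naive) cells.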

How the data were processed

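RNA-Seq libraries (TruSeq v2, Illumina MiSeq) of 7 groups were analysed, 1 library each, grouped by the labels. Per the labels, the submitters' processing notes name Bowtie, RSEM and mm10, with no versions given in the sources used here. The deposited expected counts (estimated counts) are RSEM's reads per Ensembl gene, not normalized. The authors' TPM values divide those counts by effective length and bring each library to an equal sum. In the deposited tables, FPKM was proportional to TPM among the members of a library. In mES GFP-, for example, Prrx1 was at 43.99 FPKM and 87.94 TPM and Twist1 at 15.87 FPKM and 31.73 TPM. FPKM thus differs from TPM by scale and not by the length used, while the pseudocount was kept at 1. The deposited gene lengths and effective lengths are RSEM's averages over transcripts. Total expected counts were 6108252 to 11496615 per library.

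Differences were taken on log2(TPM + 1) for genes that reached 1 TPM in one of the libraries compared, and called at 2-fold. Ratios of TPM have Clopper-Pearson and levels Poisson 95% intervals, both based on the rounded expected counts. For a gene without reads, the floor was 3 counts, at the median effective length over the libraries that had reads. No model was fitted, since the design has no replicates. The 9 comparisons share libraries. Symbols and coordinates came from GENCODE M21 (GRCm38, the same build as mm10), which holds 98% of the transcripts in the tables. Promoter windows of 250 bases came from RefSeq (GRCm38.p6), matched by symbol. No protein was compared here.

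The members, gene lists and comparisons were chosen with earlier results of these data known. Genes named were all members, the 3 nearest profiles (Pearson's r) of members spanning at least 2, and up to 2 genes a direction with the largest difference of each list, with Cdh1, Cdh2, Vim, Esrp1, Grhl2, Ovol2, Hif1a, Pou5f1 and Zfp42. Named outside this rule, after their values were seen, were Lsr and Crb3 (by their promoters), Prrx2 in comparison with Prrx1, and the overlapping Gm10125 and Zeb2os. Alternatives were a pseudocount of 0.1, FPKM, median-ratio rescaling, no minimum or 5 TPM and, chosen after seeing the data, CPM from the expected counts, without a length. The script was tested on simulated counts. The software was scipy 1.17.1, pandas 2.3.3, numpy 2.4.6 and matplotlib 3.10.9, under Python 3.11.15.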

Additional observations from a re-analysis of the deposited data

Results flagged for a closer look

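Twist1 differed between 5C and mES medium in opposite directions in the 2 fractions. On the log2(TPM + 1) scale it was -1.13 in 5C GFP- against mES GFP- cells and 0.92 in 5C GFP+ against mES GFP+ cells, and the counting interval of each ratio left out 1. The higher value in GFP-positive cells rests on 24 against 5 reads. The difference between the fractions was not tested, since each has 1 library.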

How the results depend on the processing

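No member that was 2-fold apart turned its direction under any alternative. Of the recomputed values, 215 member differences stayed within the log2 counting interval of their TPM ratio or within 0.1 of the reported difference, and 37 did not. For the member counts, 97 stayed within 1.5 times and 11 did not. Of the shares of all genes called, 96 stayed within 1.5 times and 12 did not, all in primed cells against R1 ESC (primed) and naive against mES GFP+ cells. In the former 2.30% higher and 5.09% lower became 4.17% and 8.47% with a pseudocount of 0.1, 1.36% and 2.90% with FPKM and 1.49% and 3.36% at a minimum of 5 TPM. In the latter 2.49% and 6.27% became 4.09% and 11.3%, 1.58% and 2.88%, and 1.47% and 4.16%. With a pseudocount of 0.1, 1 member was higher at 2-fold in 5C GFP+ against mES GFP+, 1 in naive cells against 5C GFP+ and 1 in naive cells against mES GFP+, each with 0 as reported. Median-ratio rescaling also gave 1 in the last. With CPM without a length, 1 (Zeb2) was higher in 5C GFP- against mES GFP- (0 as reported), and 1 was higher and 2 were lower in naive cells against 5C GFP+ (0 and 1 as reported). A minimum of 5 TPM, which tests fewer members, left 0 lower in naive against 5C GFP+, 1 higher in primed against 5C GFP+ (5 as reported) and 1 higher in primed against naive cells (4 as reported), and FPKM left 3 higher in primed against 5C GFP+; the cause of the other changes was not tested. The median of all genes tested moved under median-ratio rescaling from -0.15 to -0.00 in mES GFP+ against mES GFP-, from -0.25 to -0.04 in 5C GFP+ against 5C GFP-, from 0.14 to -0.04 in primed against naive cells, from -0.10 to 0.01 in naive cells against 5C GFP+ and from -0.16 to -0.00 in naive against mES GFP+ cells. Twist2, Snai2 and Prrx1 rest on 0 to 6 reads in most GFP-positive libraries, so that their fold changes there have wide intervals. No paired analysis was possible because each group has 1 library, and no library could be left out for the same reason.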

Other observations

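The third Snail gene, Snai3, had a profile of its own. It was at 8.90 TPM in 5C GFP+ and 11.9 TPM in 5C GFP+ (primed) cells, against 0.590 TPM in mES GFP+, 0.420 TPM in 5C GFP+ (naive), 3.14 TPM in mES GFP-, 2.47 TPM in 5C GFP- and 4.63 TPM in R1 ESC (primed). It was thus higher in 5C GFP+ (77 reads) and 5C GFP+ (primed) cells than in mES GFP- (21 reads) or 5C GFP- (16 reads), where the 7 EMT factors had their highest sums. The other pairs, and R1 ESC (primed) against the GFP-negative libraries, were not compared by a counting interval. Klf8, a Krüppel-like factor able to induce EMT, was at 31.5 and 33.6 TPM in mES GFP+ and 5C GFP+ (naive) and at 2.83 to 12.7 TPM in the other 5 libraries. Both were looked at after their values were seen.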
